A study of Mus musculus with 15 samples.

Results

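Keratin genes were followed in the uterus of ovariectomized mice given estradiol (E2) or estriol (E3), by the probes of a whole-genome expression array whose gene name in the scanner files is *Krt* followed by a number. The array carried 51 such probes for 43 genes, and a probe was kept when its spot was well above background on at least 2 of the 3 arrays of any of the 5 groups. This left 44 probes for 37 genes, of 34776 probes that met the same condition among 41174 in all. The detection flags of all 5 groups therefore chose the members, and 4 of them (those of *Krt32*, *Krt33a*, *Krt34* and *Krt6b*) met the condition in the E2 24 hr group alone, so their rise in that group is given as a description with no test. Of the 7 probes left out, those of *Krt26*, *Krt27*, *Krt31*, *Krt42* and *Krt82* were well above background on 0 arrays, and those of *Krt71* and a second probe of *Krt2* reached 1 array in a group. The member just inside the condition, *Krt33a*, was detected on 2 arrays, and the *Krt2* probe just outside it on 1 array of the E2 24 hr group, at a normalized log2 signal of -7.8.

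There were 15 single-color arrays, 3 per group, each of 1 mouse by the labels, although the published methods speak of pooled uteri. All mice were adult females of at least 10 weeks, rested for 10 to 14 days after ovariectomy. They were injected ip with 100 µL of saline vehicle, alone or with 250 ng of E2 or 250 ng of E3. By the published methods this vehicle also held ethanol. The groups were saline at 24 hr, E2 at 2 hr, E3 at 2 hr, E2 at 24 hr and E3 at 24 hr. The saline 24 hr arrays served as the control at both times, so the 4 comparisons with saline share their control, and no saline arrays of 2 hr were measured. The E2 2 hr mice were C57bl6/Jx129 with a WT *Esr1* genotype, while the other 12 mice were C57bl6/J. The E2 2 hr arrays also lay on other slides, read on another scanner and day, so that strain, scan and treatment cannot be told apart in any comparison with that group. Nothing in the labels states further independence of the samples, and p-values measure the spread between these arrays.

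Keratins are the intermediate filament proteins of epithelial cells, and each filament is built from obligate pairs of a type I (acidic) and a type II (basic to neutral) keratin. Simple keratins (*Krt7*, *Krt8*, *Krt18*, *Krt19*, *Krt20*) are made by single-layered epithelia such as the uterine lumen and glands, the basal pair *Krt5* and *Krt14* by the lowest layer of stratified epithelia, and *Krt4* and *Krt13* by the upper layers of internal stratified epithelia. Hair keratins (*Krt31* to *Krt36* of type I, *Krt81* to *Krt87* of type II) are the hard keratins of the hair shaft and nail, and *Krt25*, *Krt27*, *Krt28* and *Krt71* belong to the inner root sheath of the follicle. E2 and E3 are steroid estrogens that bind the estrogen receptor, and E3 differs from E2 by an additional hydroxyl group on the D ring. By these classes the 44 probes were 11 for 10 hair keratins, 2 for 2 inner root sheath keratins, 21 for 17 stratified epithelial keratins, 9 for 7 simple epithelial keratins and 1 for *Krt222*, which was put in no class. In the array annotation (build mm7), 23 of the type I members lay on chromosome 11, and the 19 type II members lay on chromosome 15 together with *Krt18*, the remaining type I member.

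The probe sequences of the hair keratins *Krt86* and *Krt87* are shown because they overlap. Of 1267 pairs of 60-base keratin probes for different genes, these were the only pair to share a run of at least 15 bases, and the next longest shared run had 13. The shared run of 20 bases, in capitals, closes the *Krt86* probe (chr15:101463017-101463076, plus strand, mm7) and opens the *Krt87* probe (chr15:101419766-101419825, minus strand, mm7), both in coding sequence of the filament rod.
Krt86: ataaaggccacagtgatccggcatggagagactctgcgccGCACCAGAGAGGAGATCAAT
Krt87: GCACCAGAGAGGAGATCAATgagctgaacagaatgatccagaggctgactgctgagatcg
Both genes are near-identical copies of 1 family, so the probes may each take up RNA of the other gene, and their values are uncertain as measures of separate genes. How much cross-binding there was, was not tested.

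Values are normalized log2 signals, that is, the log2 processed intensity minus the log2 75th percentile of the array, and differences between groups are log2 fold changes on this scale. Calls were made at p below 0.001 in limma's test together with a change of 2-fold or more, and adjusted p-values are those of limma with Benjamini-Hochberg adjustment over all probes tested. The detection limit, taken as the dimmest detected probe of an array, ranged from -8.29 to -7.76, and where a group lay below background on all its arrays the change is given as at least so many fold, from that limit or from the probe's own value where higher. Replicates correlated at 0.982 to 0.995 over all probes, and 77.8 to 81.8% of probes were well above background. Several arrays held signal of marker genes of exocrine pancreas or liver. The summed signal of 10 exocrine pancreas markers, in multiples of the 75th percentile, was 658 on replicate 2 of E3 2 hr and 300 on replicate 2 of E2 24 hr, with 12.9 and 5.7 on the replicate 3 of these groups and at most 0.697 on the other arrays. The sum of 14 liver markers was 10.2 to 30.1 in saline, 1.27 to 1.78 in E2 2 hr, 4.09 to 7.07 in E3 2 hr, 1.22 to 1.32 in E2 24 hr and 1.61 to 2.74 in E3 24 hr. The origin of this signal and its part in the keratin differences were not tested. In RNA of whole uterus, fewer cells of a type and less RNA per cell cannot be told apart.

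Against saline, 8 of the 44 keratin probes were called higher and 2 lower after E2 for 2 hr, where 10.6% of all tested probes were called higher and 10.7% lower. After E3 for 2 hr, 6 were called higher and 1 lower, with 4.68% and 9.11% over all probes. After E2 for 24 hr, 18 were higher and 3 lower, with 6.93% and 11.1% over all probes. The 18 include *Krt6b*, 1 of the 4 members that met the detection condition in that group alone, and without those members 17 of 40 were higher, with a median log2 fold change of 1.65. After E3 for 24 hr, 2 were higher and 1 lower, with 1.85% and 1.96% over all probes. The median log2 fold change of the keratin probes was -0.02 (all probes -0.08) for E2 2 hr, 0.27 (-0.11) for E3 2 hr, 1.77 (-0.06) for E2 24 hr and 0.64 (-0.01) for E3 24 hr. After E2 for 24 hr the calls fell mostly to type II keratins, with 13 of 18 type II probes higher against 4 of 21 type I probes once the same 4 members were left out. The 3 arrays of a treated group did not overlap with those of saline for 25 of 44 keratin probes at E2 2 hr (67.2% of all probes), 19 of 43 at E3 2 hr (58.1%), 35 of 43 at E2 24 hr (68.9%) and 24 of 44 at E3 24 hr (51.5%), and for 33 at E2 24 hr without the 4 members, so that lack of overlap by itself is common in these data. These counts describe the members that passed the detection condition and are no test of the family as a whole.

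*Krt85*, *Krt86* and *Krt87* showed the largest changes of all keratins at 2 hr, after E2 and E3 alike in direction, and at 24 hr they were higher after E2 than after E3. All encode type II keratins of the hair shaft. *Krt85* (chr15:101502722-101502781, mm7) measured -8.23, -7.33 and -8.12 on the saline arrays, of which 2 were well above background. It measured 2.8, 3.25 and 3.47 after E2 and 3.01, 3.09 and 2.56 after E3 at 2 hr. All 6 treated arrays of 2 hr thus lay far above every saline array, and the groups did not overlap. The log2 fold change was 11.07 ± 0.453 (SE, n = 3 per group) for E2 (2140-fold, limma adjusted p = 5.67e-09) and 10.78 ± 0.453 for E3 (1760-fold, adjusted p = 1.16e-08). Since the saline level sits at the detection limit, the size of the fold depends on background subtraction, and with normexp background correction the log2 fold changes of *Krt85* were 8.67 and 8.39, both still called.

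At 24 hr *Krt85* measured -0.6, -0.06 and 0.38 after E2 and -3.64, -4.66 and -5.79 after E3. Every E2 array lay above every E3 array, and every E3 array above every saline array. Against saline the log2 fold change was 7.8 ± 0.453 for E2 (223-fold, adjusted p = 2.11e-07) and 3.2 ± 0.453 for E3 (9.17-fold, adjusted p = 0.000422). The call for E3 was lost with normexp background correction (log2 fold change 1.93, adjusted p = 0.0496 by limma), and the call for E2 was kept.

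*Krt86* measured -6.08, -5.77 and -6.22 in saline, 1.36, 1.66 and 1.56 in E2 2 hr and 1.99, 2.22 and 1.65 in E3 2 hr. At 24 hr it measured -1.18, -1.02 and -0.75 after E2 but -4.83, -5.46 and -5.94 after E3, and 1 of these E3 arrays lay within the saline range. Its log2 fold changes against saline were 7.55 ± 0.245 for E2 2 hr (adjusted p = 1.93e-09), 7.97 ± 0.245 for E3 2 hr (1.63e-09), 5.04 ± 0.245 for E2 24 hr (7.55e-08) and 0.61 ± 0.245 for E3 24 hr (0.074, not called). The probe of *Krt87* followed the same course, from -5.89, -5.15 and -6.3 in saline to 1.57, 1.69 and 1.69 in E2 2 hr and 2.07, 2.32 and 1.73 in E3 2 hr. It then stood at -0.99, -0.83 and -0.87 in E2 24 hr and at -4.78, -5.33 and -5.74 in E3 24 hr, with log2 fold changes of 7.43, 7.82, 4.89 and 0.5 against saline and adjusted p = 0.187 for the last. *Krt85*, *Krt86* and *Krt87* were called at 2 hr under each alternative processing that was run.

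Slide 4 carried the 3 E3 2 hr arrays and replicate 3 of saline, which allows the E3 comparison at 2 hr within 1 slide. Within it the log2 fold change was 11.00 for *Krt85*, 8.17 for *Krt86* and 8.34 for *Krt87*. The control was then a single array, assumed to vary like the arrays of the other groups, so these are given as values only.

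**Figure D1:**
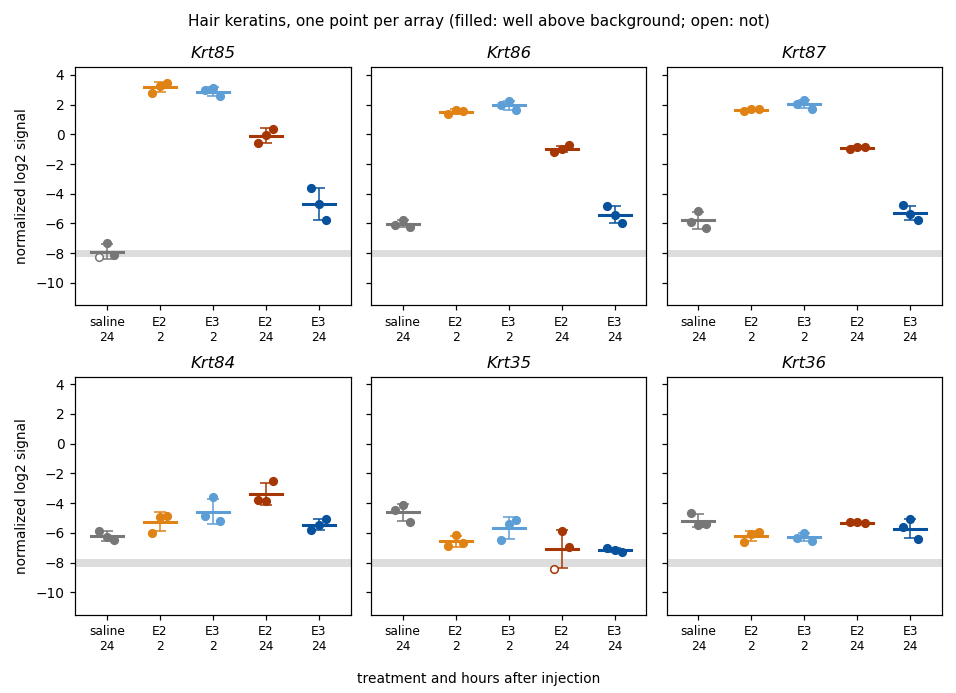
Normalized log2 signal (y axis) of 6 hair keratins on each array, by treatment and hours after injection (x axis), with the mean (bar) and SD (n = 3); filled points are well above background, open points are not, and the grey band marks the lowest detectable signal over the arrays (-8.29 to -7.76). The arrays of *Krt85*, *Krt86* and *Krt87* sit high at 2 hr for both compounds, and at 24 hr those of E2 lie between saline and 2 hr, while those of E3 lie near saline for *Krt86* and *Krt87* but above it for *Krt85* (-3.64, -4.66 and -5.79 against -8.23 to -7.33).

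*Krt84*, a type II hair keratin whose probe lies next to that of *Krt85* in the annotation, rose after E2 at 24 hr. The probes of *Krt87*, *Krt86*, *Krt85* and *Krt84* lie in this order within 91.7 kb of chromosome 15 (mm7), followed by the undetected *Krt82*. *Krt84* measured -5.85, -6.3 and -6.49 in saline, -5.98, -4.93 and -4.86 in E2 2 hr, -4.89, -3.62 and -5.21 in E3 2 hr, -3.77, -3.84 and -2.54 in E2 24 hr and -5.78, -5.44 and -5.09 in E3 24 hr. It passed the test against saline for E2 24 hr only (log2 fold change 2.83 ± 0.457, adjusted p = 0.000192), with 1.64 at adjusted p = 0.01 for E3 2 hr. The E2 24 hr call was lost with normexp background correction (1.91, adjusted p = 0.0252).

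Of the type I hair keratins, the partners of these type II keratins in the hair shaft, none was called higher at 2 hr. *Krt35* was not called at 2 hr. Over all fits that were run it changed by -2.29 to -1.14 for E2 2 hr and by -1.37 to -0.4 for E3 2 hr. *Krt35* fell at 24 hr, from -4.48, -4.12 and -5.27 in saline to -8.45, -5.86 and -6.92 after E2 and -7.04, -7.16 and -7.29 after E3, with no overlap with saline. The log2 fold changes were -2.45 ± 0.551 (adjusted p = 0.00206) and -2.54 ± 0.551 (adjusted p = 0.00433). Neither call of *Krt35* was stable: they were kept in 4 of 15 and 9 of 15 fits that left out 1 array (down to -1.77 without E2 24 hr replicate 1 and -2.29 without saline replicate 2), and both were lost with normexp background correction (-1.17 and -0.18). *Krt36*, read by a pair of probes and well above background on all arrays, was not called in any comparison, with log2 fold changes of -0.62 and -1.01 for E2 2 hr and -0.92 and -1.11 for E3 2 hr.

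The remaining type I hair keratins were well above background on at most 1 saline array. *Krt33b* was well above background on 0 saline arrays and on all arrays of both 24 hr groups (-6.44, -5.82 and -6.92 for E2, and -6.77, -4.21 and -7.28 for E3), at least 3.31-fold higher after E2 (adjusted p = 0.0105) and at least 4.09-fold higher after E3 (adjusted p = 0.0129), neither called. The E3 mean rests on replicate 2, without which *Krt33b* was at least 2.14-fold higher. *Krt34* measured -7.55, -5.53 and -7.13 in E2 24 hr, at least 2.58-fold above saline, where it was not well above background (at least 1.7-fold without E2 24 hr replicate 2). *Krt33a* measured -7.5, -8.57 and -7.2 in E2 24 hr at least 1.28-fold above saline, and *Krt32* stayed between -8.64 and -7.11 on all arrays. For these dim probes the arrays give bounds rather than levels.

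Other genes of the hair shaft and follicle were counted from a list of 30, of which 18 were tested. The list gave 2 higher and 2 lower at E2 2 hr, 2 and 1 at E3 2 hr, 2 and 3 at E2 24 hr and 0 and 0 at E3 24 hr, with a median log2 fold change of 0.1, -0.06, 0.46 and 0.41. Over all probes 10.6, 4.68, 6.93 and 1.85% were called higher and 10.7, 9.11, 11.1 and 1.96% lower in these comparisons, the shares against which each count of a class or list is to be read. Both genes that rose were peptidylarginine deiminases, which convert arginine to citrulline in proteins such as keratins and trichohyalin. *Padi1* measured -0.41, -1.34 and -0.58 in saline, 2.45, 3.74 and 3.81 in E2 2 hr, 3.48, 3.65 and 3.5 in E3 2 hr, 2.79, 2.76 and 3.13 in E2 24 hr and 0.27, 0.87 and 0.24 in E3 24 hr. It was called in the first 3 of these treated groups, with log2 fold changes of 4.11, 4.32 and 3.67 (adjusted p = 7.09e-07, 9.42e-07 and 2.94e-06), and not in E3 24 hr, where *Krt85* was called. *Padi3*, the deiminase of the hair follicle, rose by 2.9, 3.18 and 2.13 (adjusted p = 5e-05, 3.81e-05 and 0.00061). *Tchh*, which encodes trichohyalin of the inner root sheath, fell by 1.81 on the log2 scale at E2 2 hr, by 1.67 at E3 2 hr and by 1.26 at E2 24 hr (adjusted p = 1.51e-06, 5.05e-06 and 3.53e-05), and *Lef1*, a Wnt effector of the follicle matrix, by 1.76 at E2 24 hr (8.54e-07). Of the keratin-associated protein genes, 0 of 8 tested (*Krtap*, the matrix of the hair shaft, with 15 on the array) were called in any comparison. *Hoxc13*, the follicle factor known to control hair keratin genes, *Dlx3* and *Dsg4* were well above background on 0 arrays.

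The inner root sheath keratins were dim throughout. *Krt28* measured -7.32, -7.05 and -7.89 in saline, -6.01, -5.49 and -5.72 in E2 2 hr and -6.46, -6.39 and -6.85 in E3 2 hr, a change of 1.68 ± 0.213 for E2 (adjusted p = 2.38e-05) and of 0.85 for E3 (adjusted p = 0.00516, under 2-fold). The call for E2 was lost with normexp background correction (0.63, adjusted p = 0.556). At 24 hr *Krt28* measured -6.7, -6.9 and -6.54 after E2 and -7.94, -7.69 and -7.58 after E3. *Krt25* was not called against saline, and rose from below background at E2 2 hr to -5.24, -5.55 and -5.49 at E2 24 hr, at least 5.4-fold (adjusted p = 0.000112), a call lost with normexp background correction (log2 fold change 1.11, adjusted p = 0.162).

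Among the stratified epithelial keratins, *Krt4* and *Krt76* rose at 2 hr after both compounds, and *Krt76*, *Krt5*, *Krt14*, *Krt13*, *Krt6a*, *Krt75* and *Krt78* rose at 24 hr after E2. Apart from *Krt6b*, the remaining 8 of the 17 genes were called higher against saline in no group. In all, 2 of 21 stratified probes were called higher at each of E2 2 hr and E3 2 hr, 9 at E2 24 hr (8 of 20 without *Krt6b*) and 1 at E3 24 hr, where 10.6, 4.68, 6.93 and 1.85% of all probes were called higher. The count at E2 2 hr is thus near the share over all probes. The median log2 fold changes over the 17 genes (by the brightest probe of each) were -0.06, 0.3, 2.3 and 1.7, and -0.06, 0.29, 2.27 and 1.39 over the 16 genes without *Krt6b*. The 1 stratified probe that was lower was a *Krt12* probe at E2 24 hr.

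*Krt4*, the type II keratin of internal stratified epithelia such as esophagus and vagina, measured -7.07, -7.14 and -7.69 in saline. It measured -4.01, -2.03 and -2.29 in E2 2 hr and -2.01, -1.81 and -2.03 in E3 2 hr, then -5.64, -5.14 and -4.94 in E2 24 hr and -5.8, -3.63 and -6.56 in E3 24 hr. Every treated array lay above every saline array, with the E3 2 hr arrays and replicates 2 and 3 of E2 2 hr the highest. The log2 fold change at 2 hr was 4.52 ± 0.645 for E2 (23-fold, adjusted p = 6.27e-05) and 5.35 ± 0.645 for E3 (40.7-fold, adjusted p = 2.62e-05), and at 24 hr 2.06 (adjusted p = 0.0149) and 1.97 (0.0335), not called. With normexp background correction the 2 hr changes of *Krt4* were 2.78 (adjusted p = 0.00419) and 3.55 (0.00135), both still called. *Krt76*, a type II keratin of oral and other squamous epithelia, rose from -7.45, -8.46 and -7.54 in saline to -6.01, -5.72 and -5.62 in E2 2 hr and -5.3, -5.25 and -5.67 in E3 2 hr. Its changes of 2.04 (adjusted p = 8.91e-05) and 2.41 (3.7e-05) at 2 hr and of 1.45 (0.00129) at E2 24 hr were all lost with normexp background correction (0.67, 0.90 and 0.40).

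The basal pair rose at E2 24 hr. *Krt5* measured 0.79, -1.3 and -0.73 in saline, -0.7, -0.93 and -0.06 in E2 2 hr, 0.04, 2.42 and 2.32 in E3 2 hr, 4.3, 4.81 and 4.43 in E2 24 hr and 2.33, 5.32 and 1.96 in E3 24 hr. *Krt14*, its type I partner, measured -1.06, -2.9 and -2.64 in saline, -3.24, -2.9 and -2.36 in E2 2 hr, -2.28, -0.17 and -0.18 in E3 2 hr, 2.34, 4.07 and 3.38 in E2 24 hr and 0.18, 4.11 and -0.34 in E3 24 hr. The E2 24 hr arrays were high together, while the E3 24 hr arrays ranged from just above the saline arrays to the highest value of all 15 arrays, on replicate 2. For E2 24 hr the log2 fold change was 4.92 ± 0.858 for *Krt5* (30.3-fold, adjusted p = 0.000341) and 5.46 ± 1.02 for *Krt14* (44.1-fold, 0.000563). For E3 24 hr it was 3.62 (adjusted p = 0.00704) and 3.52 (0.0193), neither called. The *Krt14* call at E2 24 hr was lost without E2 24 hr replicate 2 (5.06, adjusted p = 0.00329) or without saline replicate 2 (5.11, 0.00305).

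*Krt6a*, a type II keratin of stressed and fast-renewing epithelia, was not well above background on any saline or E2 2 hr array. It measured -9.42, -6.5 and -6.57 in E3 2 hr, -2.46, 0.72 and 0.09 in E2 24 hr and -6.7, -0.39 and -7.37 in E3 24 hr. After E2 for 24 hr it was at least 190-fold higher than in saline (adjusted p = 0.000224; at least 122-fold without replicate 2 and 368-fold without replicate 1), and after E3 at least 9.84-fold (adjusted p = 0.0241, not called), a mean that rests on replicate 2, without which the bound was 2.12-fold. The neighboring near-identical copy *Krt6b*, whose probe may also take up *Krt6a* RNA (not tested), measured -4.68, -0.93 and -1.56 in E2 24 hr, at least 53-fold over saline (32-fold without replicate 2 and 117-fold without replicate 1), and -8.45, -2.29 and -9.53 in E3 24 hr, where replicate 2 alone was detected.

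*Krt13*, the type I partner of *Krt4*, was read by a pair of probes that differed in size but not in direction at 24 hr. The A_51_P307964 probe measured -1.09, -2.09 and -1.93 in saline, 0.4, 0.98 and 0.78 in E2 24 hr and -0.54, 1.37 and -0.85 in E3 24 hr. Its E2 24 hr change was 2.42 ± 0.492 (adjusted p = 0.00103), against 4.73 ± 0.945 (0.000913) by the A_52_P430886 probe of *Krt13*, and each call was kept in 11 of 15 fits that left out 1 array. The losses came without saline replicate 2 or 3 and without E2 24 hr replicate 2 or 3, where the changes of the *Krt13* probes stood between 2.23 and 2.39 and between 4.24 and 4.69. At 2 hr, when its partner *Krt4* was called, *Krt13* was not by either probe. The changes of *Krt13* were -1.27 for E2 (adjusted p = 0.0397) and 0.17 for E3 (0.8) by the A_51_P307964 probe, and 0.29 (0.805) and 1.8 (0.137) by the A_52_P430886 probe.

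*Krt75*, a type II keratin of the companion layer of the hair follicle, was the stratified member called after both compounds at 24 hr. It measured -7.07, -7.13 and -7.48 in saline, -6.73, -6.46 and -6.39 in E2 2 hr, -6.77, -6.08 and -6.39 in E3 2 hr, -2.76, -3.35 and -3.18 in E2 24 hr and -5.43, -4.67 and -4.22 in E3 24 hr. The 24 hr arrays of each compound did not overlap with saline or with each other. The log2 fold change was 4.13 ± 0.276 for E2 (17.5-fold, adjusted p = 4.14e-07) and 2.45 ± 0.276 for E3 (5.48-fold, adjusted p = 0.000139). With normexp background correction the E2 change of *Krt75* was 2.43 (adjusted p = 0.000623, called). *Krt78*, a type II keratin of stratified epithelia, measured -7.55, -8.73 and -8.07 in saline, -4.99, -3.52 and -3.63 in E2 24 hr and -5.71, -3.36 and -6.39 in E3 24 hr, with changes of 4.07 ± 0.709 (adjusted p = 0.000338) and 2.96 (0.00737, not called). The E3 change rests on replicate 2, without which it was 2.07 (adjusted p = 0.0212). The E2 call of *Krt78* was lost with normexp background correction (1.89, adjusted p = 0.025).

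**Figure D2:**
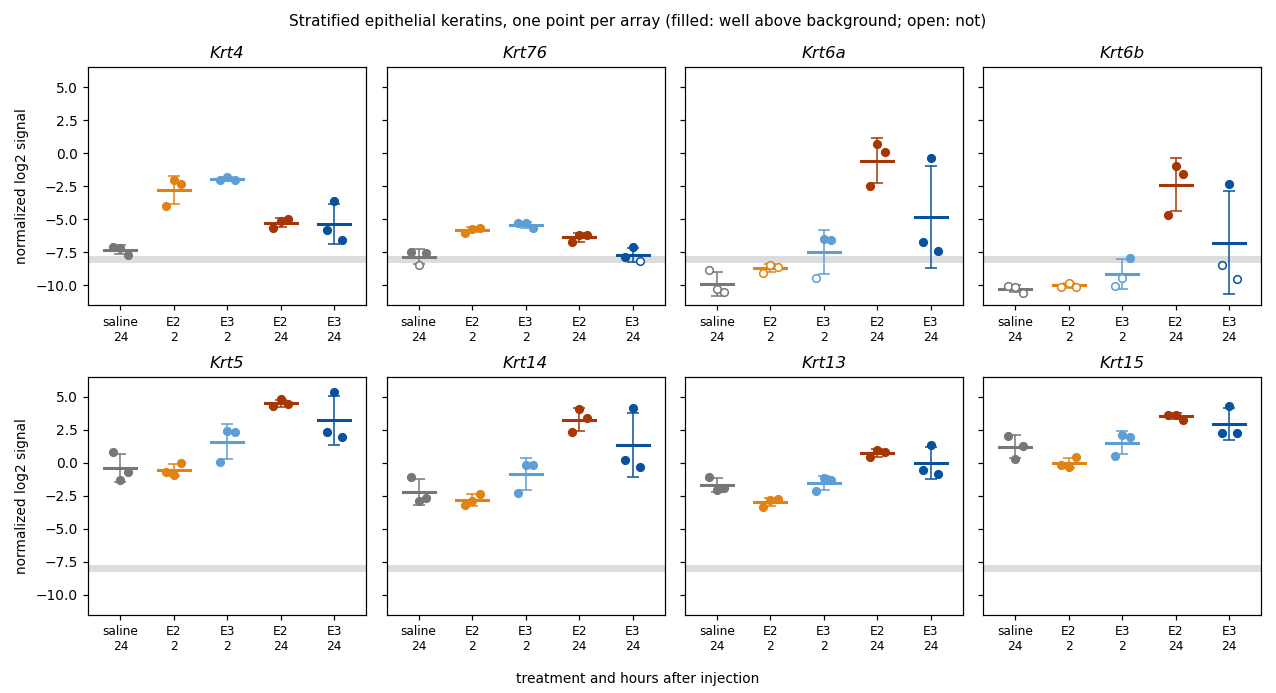
Normalized log2 signal (y axis) of 8 stratified epithelial keratins on each array, by treatment and hours after injection (x axis), with the mean (bar) and SD (n = 3); filled points are well above background, open points are not, and the grey band marks the lowest detectable signal. *Krt4* and *Krt76* are highest at 2 hr, the means of the other plotted keratins are highest at E2 24 hr, and in E3 24 hr replicate 2 stands above the other arrays of its group, as for *Krt5* (5.32 against 2.33 and 1.96).

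The remaining stratified keratins were not called against saline, apart from *Krt12*. *Krt15*, a basal type I keratin, measured 2.05, 0.29 and 1.29 in saline and 3.64, 3.63 and 3.25 in E2 24 hr (change 2.3, adjusted p = 0.00495, not called). *Krt16*, the partner of *Krt6a*, reached -3.36, 1.39 and -1.13 in E2 24 hr from -4.36, -4.54 and -4.77 in saline (3.52, adjusted p = 0.00373, not called). Those E2 24 hr arrays spread over far more than the saline arrays. *Krt17* changed by -0.49 to 0.95 against saline, *Krt9* by -0.34 to 0.68, the *Krt1* probes by -0.45 to 0.99 and the *Krt2* probe by -0.5 (E2) and -0.41 (E3) at 24 hr. At 2 hr *Krt2* was below background and at least 1.57-fold (E2, adjusted p = 0.057) and 1.65-fold lower (E3, 0.0287) than in saline, neither called. *Krt10*, a keratin of the upper epidermis, changed by -0.57 (adjusted p = 0.00159) for E2 2 hr and -0.6 (0.00148) for E3 2 hr by its A_51_P111285 probe, both under 2-fold, and by 0.15 and -0.16 by its A_52_P76277 probe. At 24 hr the *Krt10* probes differed as well, with -0.01 (E2) and -0.14 (E3) by the former and 1.76 (adjusted p = 0.0168) and 0.78 (0.313) by the latter, none called. The *Krt12* probes, for the keratin of corneal epithelium, disagreed: at E2 24 hr A_52_P803471 was at least 5.88-fold lower than saline (adjusted p = 0.000632; call lost with normexp background correction, log2 fold change -1.25), while A_52_P100156 changed by 2.25 (0.00294, not called).

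The arrays that stood high within their group for the basal keratins also stood high for some other genes of stratified epithelium. *Pitx1*, a homeobox factor, and the pair after it were chosen for this once their values were seen. *Pitx1* measured -4.04, -0.39 and -4.52 on the E3 24 hr arrays, -4.7, -2.33 and -2.37 on those of E3 2 hr and -4.13, -6.62 and -5.18 on those of saline. *Trp63*, the master factor of stratified epithelium, measured -0.71, 0.39 and -0.86 in E3 24 hr and -2.53, -1.07 and -1.34 in E3 2 hr, and *Pkp1*, a desmosomal plakophilin, -1.93, 0.92 and -1.98 and -3.94, -1.76 and -1.87. In these genes replicate 2 of E3 24 hr and replicates 2 and 3 of E3 2 hr were the high arrays, as for *Krt5* and *Krt14*. *Pitx1* and *Trp63* do not stand for their list, the regulators of squamous epithelium. Of its 8 tested genes, 3 were lowest on replicate 1 of E3 2 hr and 5 highest on replicate 2 of E3 24 hr. For 16 tested genes of skin and the cornified envelope these counts were 7 and 12. *Pkp1* belongs to the genes of desmosomes, hemidesmosomes and plakins, for which this order was not counted. The shares over all probes were not counted either. The summed signal of the stratified regulators, 8 of whose 9 genes on the array were detected (*Sox2* on 0 arrays), was 19.8 to 22 in saline, 37.1 to 43.6 in E2 2 hr, 39.5 to 44.3 in E3 2 hr, 31.7 to 34.1 in E2 24 hr and 18.7 to 25.2 in E3 24 hr. These sums are carried mostly by *Klf4* and *Sfn*, which reached normalized log2 signals of 5.02 and 3.74, while *Barx2*, the next brightest, reached 0.97. Whether the amount of stratified epithelium taken with each uterus differed was not tested. The arrays of E2 24 hr were also ordered by exocrine pancreas marker signal (sums of 0.498, 300 and 5.7 on replicates 1, 2 and 3). This order was that of 12 of 21 stratified probes, among them *Krt14*, *Krt6a*, *Krt6b* and *Krt16*. It was also that of 3 of 11 hair probes and of 1 of 9 simple probes, where 21.5% of all tested probes had it. In E3 2 hr (0.375, 658 and 12.9) it was that of 9 of 21 stratified probes, among them *Krt5* and *Krt14*, and of 0 of 11 hair and 0 of 9 simple probes, with 10.7% of all tested probes. The part of pancreas RNA, or of tissue taken with it, in these values was not tested.

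Genes that work with the stratified keratins were counted from lists of their known roles. Of 16 tested genes of skin and the cornified envelope, 6 were higher at E2 24 hr and 4 at E3 24 hr with 0 lower at either, and 1, *Sbsn* or suprabasin, was lower at E2 2 hr (-1.35, adjusted p = 1.34e-06) and at E3 2 hr (-1.02, 2.23e-05). Over all probes 6.93% were higher at E2 24 hr and 1.85% at E3 24 hr. The list's median log2 fold change was 1.4 for E2 24 hr and 1.04 for E3 24 hr. Among the 6 is *Sprr3*, which was well above background on 2 arrays in all and so met the detection condition in 1 group alone. Its rise at E2 24 hr (1.46), which also enters the median, is a description with no test. *Ivl*, called at both times, was well above background on 4 arrays. *Sprr2d*, a small proline-rich envelope precursor, measured -7.71, -6.92 and -7.31 in saline, -1.02, 0.49 and 0.37 in E2 24 hr and -3.5, -1.36 and -2.41 in E3 24 hr, changes of 7.26 ± 0.516 (adjusted p = 5.76e-07) and 4.89 ± 0.516 (0.000109). *Sprr1a* rose by 6.39 (adjusted p = 1.22e-06) and 4.19 (0.000201). Among 8 tested regulators of squamous epithelium, *Klf4* was the 1 called at 2 hr (list medians 0.12 and 0.23), up by 1.75 for E2 (3.67e-07) and 1.73 for E3 (7.7e-07). Of 18 tested genes of desmosomes, hemidesmosomes and plakins, which anchor keratin filaments, 3 rose at each of E2 2 hr and E3 2 hr (10.6 and 4.68% over all probes), among them the desmosomal cadherin *Dsc2* (1.94 and 2.23). At E2 24 hr 3 rose and 1, the plakin *Dst*, fell (-1.27, 8.48e-06), and at E3 24 hr 2 rose, with the basal cadherin *Dsg3* up by 2.88 (adjusted p = 0.000575) and 2.59 (0.00344).

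The simple epithelial keratins, those of the uterine lumen and glands, were well above background on all 15 arrays. Of 9 probes, 2 were called higher and 1 lower at E2 2 hr, 1 and 1 at E3 2 hr, 5 and 1 at E2 24 hr, and 0 and 0 at E3 24 hr, where the shares over all probes were 10.6 and 10.7%, 4.68 and 9.11%, 6.93 and 11.1%, and 1.85 and 1.96%. *Krt7* by its A_51_P312348 probe measured 3.14, 2.72 and 2.83 in saline, 3.9, 4.32 and 4.44 in E2 2 hr, 4.05, 3.88 and 3.67 in E3 2 hr, 5.23, 5.13 and 5.31 in E2 24 hr and 3.42, 3.78 and 3.53 in E3 24 hr. All treated arrays lay above all saline arrays, those of E2 24 hr the highest. The log2 fold changes of *Krt7* were 1.32 ± 0.159 (adjusted p = 1.56e-05), 0.97 ± 0.159 (0.00029, just under 2-fold), 2.33 ± 0.159 (4.65e-07) and 0.68 ± 0.159 (0.00678). The A_52_P410685 probe of *Krt7* gave 0.72 (0.0123), 1.11 (0.00109, called), 2.59 (1.67e-06) and 0.68 (0.0308), so which compound passed the cutoffs at 2 hr differed between the probes.

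*Krt8*, the type II partner of *Krt18*, measured 4.44, 4.15 and 4.19 in saline, 3.55, 3.91 and 4.02 in E2 2 hr, 4.13, 4.15 and 3.7 in E3 2 hr, 5.76, 5.78 and 5.7 in E2 24 hr and 5.25, 5.04 and 5.03 in E3 24 hr (probe A_51_P242399). It rose by 1.49 ± 0.146 at E2 24 hr (adjusted p = 4.48e-06), with 0.85 at E3 24 hr (0.00119, under 2-fold). *Krt19*, a type I keratin of ducts and glands, measured 3.92, 3.37 and 3.4 in saline, 2.6, 2.93 and 2.9 in E2 2 hr, 3.4, 3.24 and 2.96 in E3 2 hr, 4.93, 4.96 and 4.92 in E2 24 hr and 4.22, 3.98 and 4.04 in E3 24 hr, and rose by 1.37 ± 0.156 at E2 24 hr (1.3e-05). *Krt18* itself gave 0.48 at E2 24 hr (adjusted p = 0.0155) and 0.51 at E3 24 hr (0.0227), neither called.

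*Krt20*, the type I keratin of intestinal and urothelial surface cells, was the simple keratin that fell. It measured -2.54, -1.95 and -2.35 in saline, -4.11, -3.73 and -5.25 in E2 2 hr, -3.65, -3.66 and -4.17 in E3 2 hr, -4.9, -4.52 and -4.86 in E2 24 hr and -2.58, -2.88 and -2.3 in E3 24 hr. The saline and E3 24 hr arrays overlapped, and all others lay below both. The changes were -2.09 ± 0.325 (adjusted p = 0.000127), -1.54 ± 0.325 (0.00175), -2.48 ± 0.325 (3.87e-05) and -0.31 (0.497, 95% interval -1.02 to 0.4). The *Krt20* call at E3 2 hr was lost with normexp background correction (-1.33) and with quantile normalization (-1.43), and was kept in 10 of 15 fits that left out 1 array, being lost without saline replicate 2 or 3 or without any of the E3 2 hr arrays (adjusted p up to 0.00911). *Krt23* was called for E2 2 hr (1.18 ± 0.263, adjusted p = 0.00186) in 4 of 15 such fits, with 0.84 without E2 2 hr replicate 3. The *Krt23* call was also lost with the replicate number as a block, and held in 12 of 27 alternatives in all. *Krt80* changed by -0.21 to 0.18 against saline.

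**Figure D3:**
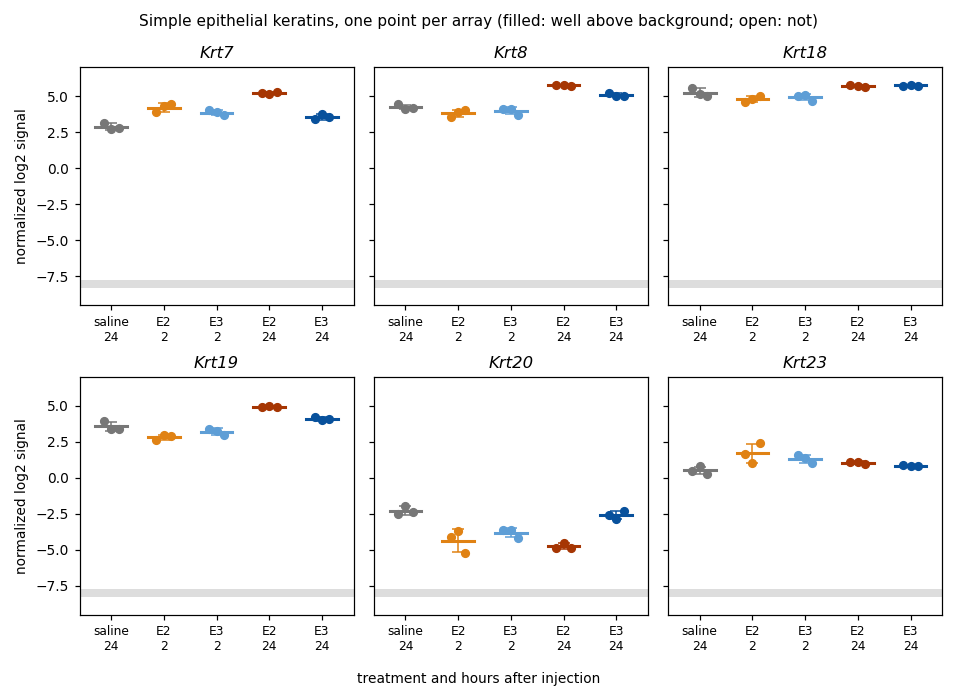
Normalized log2 signal (y axis) of 6 simple epithelial keratins on each array (for *Krt7* and *Krt8* the brighter probe), by treatment and hours after injection (x axis), with the mean (bar) and SD (n = 3); all points are well above background, and the grey band marks the lowest detectable signal. *Krt7*, *Krt8* and *Krt19* are highest in E2 24 hr, while *Krt20* is low in all treated groups but E3 24 hr.

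Other genes of simple epithelium moved in both directions. Of 16 tested, 3 were higher and 2 lower at E2 2 hr, 2 and 0 at E3 2 hr, 6 and 1 at E2 24 hr, and 3 and 0 at E3 24 hr, against the same shares over all probes. *Muc1*, a mucin of the luminal surface, measured -3.95, -3.54 and -3.65 in saline, -0.73, -0.74 and -0.5 in E2 24 hr and -1.96, -1.91 and -1.7 in E3 24 hr (changes 3.06 and 1.86, adjusted p = 2.41e-07 and 8.16e-05). *Elf3*, an epithelial ETS factor, rose in every treated group, by 1.78, 1.65, 2.48 and 1.02 (adjusted p = 6.67e-07, 2.21e-06, 2.17e-07 and 0.000421). The claudins *Cldn4* and *Cldn3* were lower at E2 2 hr (-1.26 and -1.05), and *Wnt7a*, made by the uterine epithelium, at E2 24 hr (-1.31, 0.000776). The summed signal of the list was 31.7 to 38.2 in saline, 31 to 42.4 and 29.7 to 40.2 at 2 hr after E2 and E3, 76.8 to 79.1 in E2 24 hr and 49.3 to 53.9 in E3 24 hr. The part of a changed share of epithelium in the simple keratin differences was not tested. Of 11 tested intermediate filament genes that are not keratins, 4 rose at E2 24 hr (*Lmnb1*, *Lmna*, *Lmnb2* and *Des*, by 1.15 to 1.61) and 0 at E3 24 hr, with 6.93 and 1.85% over all probes.

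Promoter sequence was at hand for 22 of the 37 keratin genes (RefSeq, GRCm38.p6), as 23 promoters searched over the 250 bases before the start. *Krt85*, *Krt86*, *Krt87*, *Krt4*, *Krt6a* and *Krt6b* were among the genes without one, so their promoters were not searched for any motif. The promoters of *Krt7* and *Krt20* are shown, the simple keratins that moved in opposite directions after E2. In that of *Krt7* (chr15:101412153-101412402, plus strand) the capitals mark GGGCGG on either strand, the GC box, and in that of *Krt20* (chr11:99438154-99438403, minus strand) they mark TATAAA, the TATA box, and GGTCA, the half-site to which estrogen receptors and other nuclear receptors bind.
Krt7: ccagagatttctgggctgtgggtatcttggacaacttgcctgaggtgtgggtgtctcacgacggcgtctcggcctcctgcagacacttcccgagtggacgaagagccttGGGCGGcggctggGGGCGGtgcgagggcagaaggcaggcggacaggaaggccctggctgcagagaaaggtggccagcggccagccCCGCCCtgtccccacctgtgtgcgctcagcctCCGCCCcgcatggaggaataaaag
Krt20: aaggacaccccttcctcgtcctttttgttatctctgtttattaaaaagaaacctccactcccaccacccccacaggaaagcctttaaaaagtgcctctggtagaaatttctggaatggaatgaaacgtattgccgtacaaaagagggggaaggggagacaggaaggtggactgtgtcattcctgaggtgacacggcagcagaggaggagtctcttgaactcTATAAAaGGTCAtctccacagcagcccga
The *Krt7* stretch holds 4 GC boxes and the *Krt20* stretch has its TATA box next to the half-site. Searched on both strands, the palindromic estrogen response element (GGTCA, a gap of 3 bases and its reverse complement) was in 0 of the 23 keratin promoters and in 0.0639% of 32851 mouse promoters, and GGTCA by itself, which the palindrome contains, was in 7 of 23 and in 35.2% of all. TGANTCA, the AP-1 site, was in 2 of 23 (6.75% of all), GGGCGG in 2 of 23 (32.7%) and TATAAA in 10 of 23 (12.4%). These are matches of letters in this window only.

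Estriol and estradiol, given at the same dose, were compared directly at each time. At 2 hr 1 keratin probe (*Krt222*) was called higher after E3 than after E2 and 0 lower, where 1.54% and 5.83% of all probes were called. For *Krt85* the E3 minus E2 difference at 2 hr was -0.29 (95% interval -1.28 to 0.7, adjusted p = 0.636), for *Krt86* 0.43 (-0.11 to 0.96, 0.18) and for *Krt87* 0.39 (-0.22 to 0.99, 0.28). *Krt7* differed by -0.35 (-0.7 to -0.01, adjusted p = 0.0913) by its A_51_P312348 probe and by 0.39 (-0.08 to 0.87, 0.168) by its A_52_P410685 probe, so the probes disagreed in sign. Since the E2 2 hr arrays differ from the E3 2 hr arrays in strain, slide and scanner as well, differences between them cannot be told apart from those.

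At 24 hr, when slides still differed but strain and scanner did not, 10 keratin probes were lower after E3 than after E2 and 1 was higher, with 2.07% and 2.77% over all probes. The arrays of both compounds did not overlap for 21 of 43 keratin probes at 24 hr (51.3% of all probes) and for 14 of 43 at 2 hr (50.8%). The median difference at 24 hr was -0.79 over the keratin probes and 0.06 over all probes. Without the 4 members that met the detection condition in E2 24 hr alone it was -0.72, and 18 probes did not overlap. The hair keratins *Krt85*, *Krt86* and *Krt87* were lower by 24.3-fold, 21.6-fold and 20.9-fold (log2 -4.6, -4.43 and -4.39, adjusted p = 2.77e-05, 1.15e-06 and 3.11e-06). These hair keratin calls were kept under each alternative that was run. *Krt7* was lower by -1.65 ± 0.159 (2.47e-05) and -1.91 ± 0.218 (6.84e-05) for its probes, *Krt75* by -1.67 ± 0.276 (0.000675) and the A_52_P100156 probe of *Krt12* by -3.03 ± 0.533 (0.00101).

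*Krt20* was the 1 keratin probe higher after E3 than after E2 at 24 hr (2.17 ± 0.325, adjusted p = 0.000358), where the E3 arrays overlapped the saline arrays. The remaining calls were less stable: *Krt84* (-2.06, adjusted p = 0.00422) was kept in 5 of 15 fits that left out 1 array, *Krt76* (-1.34, 0.00476) in 4 and *Krt28* (-1.02, 0.00285) in 11. With normexp background correction *Krt84*, *Krt75*, *Krt76* and the A_52_P100156 probe of *Krt12* lost their calls (-0.58, -0.37, 0.76 and -1.42), and *Krt28* stood at 0.91. The changes of *Krt85*, *Krt86* and *Krt87* were then -3.56, -2.91 and -2.96. For the basal keratins no difference was called, with -1.31 for *Krt5* (95% interval -3.17 to 0.56), and the arrays of E3 24 hr spanned more than that difference.

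Between 2 and 24 hr, 18 keratin probes rose and 3 fell after E2 (13.9% and 17.2% over all probes), of which *Krt6b* and *Krt33a* met the detection condition at E2 24 hr alone, leaving 16 of 40 higher without the 4 such members, and 3 rose and 6 fell after E3 (9.65% and 6.46%). The arrays of both times did not overlap for 32 of 43 keratin probes after E2 (72.9% of all probes; 31 without the 4 members) and 21 of 43 after E3 (62.1%). *Krt85*, *Krt86* and *Krt87* fell after both, with log2 fold changes of -3.27, -2.51 and -2.55 after E2 and of -7.58, -7.36 and -7.32 after E3 (adjusted p at most 3.44e-05). *Krt4* fell after E3 by 3.38 on the log2 scale (adjusted p = 0.000741). The *Krt4* call was lost without E3 2 hr replicate 2 or E3 24 hr replicate 1 or 3 (adjusted p up to 0.00431) and with normexp background correction (-1.67, adjusted p = 0.0589). After E2, the basal *Krt15* rose by 3.53 ± 0.592 (adjusted p = 0.000166) and the A_51_P416669 probe of *Krt1* by 1.44 ± 0.267 (0.000374) from 2 to 24 hr. The *Krt1* call was lost without E2 24 hr replicate 2 (1.24, adjusted p = 0.00228) and with normexp background correction (0.89, 0.178). *Krt8* rose after both compounds, by 1.92 and 1.12 (A_51_P242399), and *Krt75* by 3.43 and 1.64. The change of the E3 minus E2 difference from 2 to 24 hr was called lower for 8 keratin probes and higher for 0 (4.39% and 11.1% over all probes), among them *Krt86* (-4.86 ± 0.346, adjusted p = 4.64e-06) and *Krt85* (-4.32 ± 0.641, 0.000232).

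**Figure D4:**
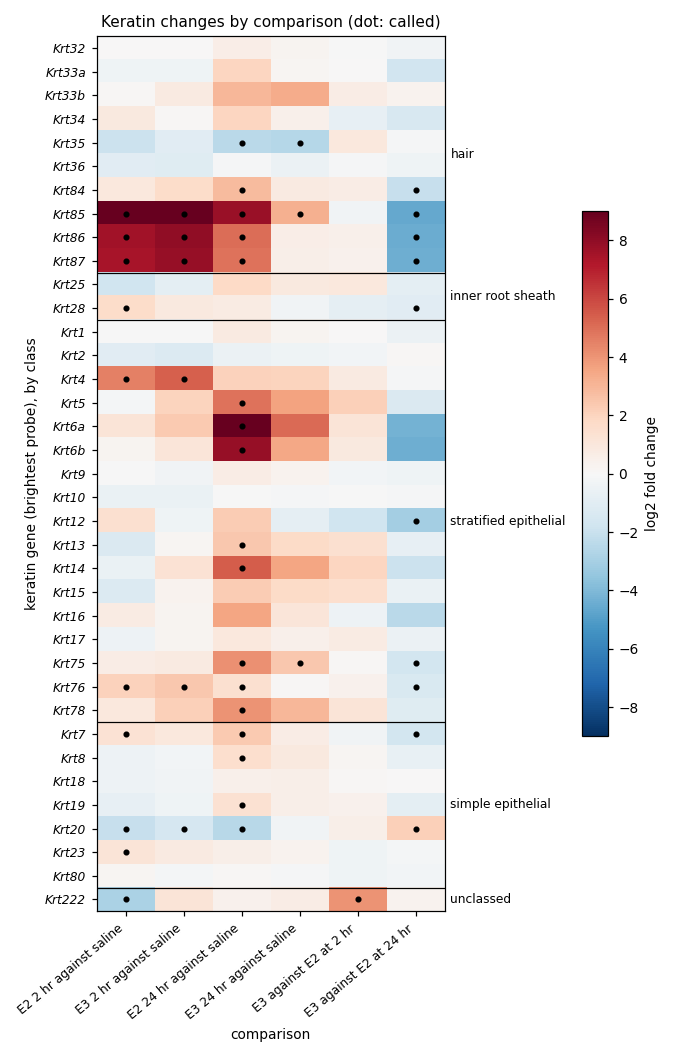
Log2 fold change (color, scale ending at -9 and 9) of each of the 37 keratin genes by its brightest probe (y axis, grouped by class) in 6 comparisons (x axis); a dot marks a call at p below 0.001 and at least 2-fold. The strongest red at 2 hr lies on *Krt85*, *Krt86*, *Krt87* and *Krt4*, and the E2 24 hr column holds the most dots. The last column, E3 against E2 at 24 hr, is blue for *Krt84* to *Krt87* (-4.6 for *Krt85*) and red for *Krt20* (2.17). *Krt6a* and *Krt6b* are blue there as well but hold no dot.

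*Krt222*, an atypical keratin-like gene put in no class, measured -6.47, -5.51 and -6.43 in saline and -9.28, -10.02 and -7.75 in E2 2 hr, where 1 array was well above background. The other groups lay between -6.16 and -4.26, with 1 value each of E3 2 hr and E2 24 hr missing because the spot was flagged as an outlier, so the fit used 2 arrays there. It was lower at E2 2 hr by -2.88 ± 0.59 (adjusted p = 0.00162), a call kept in 8 of 15 fits that left out 1 array (-2.38 without E2 2 hr replicate 2), and E3 exceeded E2 at 2 hr by 4.05 ± 0.66 (0.000809), lost without E3 2 hr replicate 3 (3.35, adjusted p = 0.00974). The E2 2 hr values of -9.28 and -10.02 lay under the detection limit, so the size of both *Krt222* changes depends on background subtraction. With normexp background correction both *Krt222* calls were lost (-0.77 and 1.45). The E2 2 hr group is the one that differs in strain and slides.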

How the data were processed

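Uterine RNA was labeled with Cy3 and hybridized by the authors to 15 Agilent 4 × 44 arrays, and spots were read with Feature Extraction 9.5.3.1 per the file headers. The deposited scanner files hold, for 45018 spots, a processed intensity (background subtracted by the authors' software, linear scale, not normalized between arrays), and the deposited series table has the same intensity values (largest relative difference 0). From these, 43379 spots that are not controls were used here. The 1893 spot values flagged as outliers, counted over all 15 arrays together, were set aside. The 75th percentile of each array (2988.68 to 4411.89 intensity units) was divided out, log2 was taken and spots of 1 probe were averaged.

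Group means of all 5 groups were fitted with limma 3.58.1 in R 4.3.3 (with the data.table package, version 1.17.8; 10 residual and 2.06 prior degrees of freedom; 9 contrasts), on probes well above background on 2 of 3 arrays of a group: 34776, or 34766 where E2 2 hr enters. The cutoffs (p below 0.001, 2-fold) follow the study's heat map. Intervals are 95%. The scripts were tested on simulated data. Plots used matplotlib 3.10.9 under python 3.11.15. Of the 44 keratin probes, 33 were named by accession, 9 by symbol and 1 by synonym through the RefSeq gene list, and the other kept its symbol from the files. Named were the called keratins, the simple keratins and the members at the detection threshold, and of each list the called genes with the largest changes in either direction. The members, classes and lists were chosen with earlier results of these data known. Alternatives were the background correction, scaling, filters, cutoffs, blocks and leaving out arrays. The number of arrays limits the precision. Replicate numbers do not pair the samples: over 30 same-numbered pairs the correlation of deviations ran from -0.47 to 0.55, and 10 were over 0.1.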

Additional observations from a re-analysis of the deposited data

Results flagged for a closer look

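For 8 keratin probes the E3 minus E2 difference changed between 2 and 24 hr by limma's test of the interaction of compound and time, in each case toward lower values after E3 at 24 hr, in log2 units. The changes were -4.86 for *Krt86*, -4.77 for *Krt87* and -4.32 for *Krt85*, the hair keratins. They were -2.3 for the A_52_P410685 probe and -1.3 for the A_51_P312348 probe of *Krt7*, -1.25 for *Krt19* and -1.09 for the A_51_P242400 probe of *Krt8*, all simple epithelial keratins, and -1.79 for *Krt75*. Over all probes 4.39% were called in this direction. The 2 hr side of each difference contains the E2 2 hr arrays, whose strain, slides and scanner differ, so their part cannot be told apart from that of the compound. Leaving out 1 array, the call of *Krt75* was kept in 6 of 15 fits and that of the *Krt8* probe in 5 of 15, and both were lost with the replicate number as a block. With normexp background correction the calls of *Krt85* (-3.28), *Krt86* (-3.33) and *Krt75* (-0.43) were lost.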

How the results depend on the processing

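Counts of keratin probes called, against the reported count in parentheses, moved by over 1.5 times as follows. With a Benjamini-Hochberg cutoff of 0.05 and 2-fold, the higher calls were 11 for E3 24 hr against saline (2), 7 for E3 24 hr against 2 hr (3), 2 for E3 against E2 at 2 hr (1) and 1 for the interaction (0), and the lower calls 7 for E2 2 hr (2), 3 for E3 2 hr (1), 2 for E3 24 hr (1), 5 for E2 24 hr against 2 hr (3), 1 for E3 against E2 at 2 hr (0) and 15 for the interaction (8). With normexp background correction, the higher calls were 5 for E2 2 hr (8), 1 for E3 24 hr (2) and 0 for E3 against E2 at 2 hr (1), and the lower calls 1 for E2 2 hr (2), 0 for E3 2 hr (1), 1 for E2 24 hr (3), 0 for E3 24 hr (1), 5 for E3 against E2 at 24 hr (10), 3 for E3 24 hr against 2 hr (6) and 5 for the interaction (8). Without scaling, 4 were higher at E3 24 hr (2), 5 lower for E2 24 hr against 2 hr (3) and 2 lower at E3 2 hr (1). With no minimum change, 4 were higher at E3 24 hr (2), 5 higher for E3 24 hr against 2 hr (3), 4 lower at E2 2 hr (2) and 2 lower at E3 2 hr (1). With quantile normalization 1 was higher for E3 24 hr against 2 hr (3) and 0 lower at E3 2 hr (1). Raising values to the floor gave 1 lower at E2 2 hr (2) and 2 at E3 24 hr (1), and probes detected in every group gave 1 lower at E2 2 hr (2) and 0 higher for E3 against E2 at 2 hr (1). Within slide 4, an alternative chosen after seeing the data, 0 were lower at E3 2 hr (1). The cause of these shifts was not tested.

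Leaving out 1 array, the higher counts ranged from 7 to 8 (E2 2 hr), 5 to 7 (E3 2 hr), 13 to 20 (E2 24 hr), 2 to 4 (E3 24 hr), 0 to 2 and 1 to 1 (E3 against E2 at 2 and 24 hr), 12 to 18 and 1 to 4 (24 against 2 hr, E2 and E3) and 0 to 1 (interaction), and the lower counts from 1 to 3, 0 to 2, 1 to 3, 0 to 1, 0 to 1, 7 to 11, 3 to 5, 5 to 6 and 6 to 13 in the same order. The *Krt76* call at E2 24 hr was lost without saline replicate 2 or E2 24 hr replicate 2 or 3 (adjusted p up to 0.0066), that of the lower *Krt12* probe without the same arrays (up to 0.00359), and that of the A_52_P410685 probe of *Krt7* at E3 2 hr without saline replicate 2 or 3 or E3 2 hr replicate 1 or 2 (up to 0.00591). Values with the sign turned came with normexp alone: *Krt28* 0.84 and *Krt76* 0.25 for E3 24 hr against 2 hr, and *Krt28* 0.91 and *Krt76* 0.76 for E3 against E2 at 24 hr. With the replicate number as a block, the higher and lower calls were 7 and 2 (E2 2 hr), 6 and 1 (E3 2 hr), 19 and 3 (E2 24 hr), 2 and 1 (E3 24 hr), and 1 and 8 for E3 against E2 at 24 hr, and 5 of 15 arrays correlated best with an array of their own number. Over single probes 10486 values kept direction and side of the cutoffs, 155 passed newly, 212 no longer passed and 4 turned. Another percentile moved the median of all probes to at most -0.14. Signal near background limits *Krt76*, *Krt84*, *Krt35*, *Krt28* and the type I hair keratins.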
